A study of Mus musculus with 4 samples.

Results

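Leptomeningeal border spots were the spots of mouse brain sections that scored highest for 6 genes of fibroblasts of the pia and arachnoid. They were compared between mice that lost Pdcd10 in brain endothelium and controls. Spots with at least 1000 unique molecular identifiers (UMIs) were kept. A score was the UMIs of 6 genes (Igf2, Slc6a20a, Slc13a4, Aebp1, Fmod and Col1a2) divided by all UMIs of the spot. Members were chosen by this score, in the top 4% of their library, and held at least 3 UMIs of the 6 genes. The rule gave 405 border spots of 16098 kept spots, which were 106 of 2931 in control 1, 96 of 4096 in control 2, 87 of 4599 in knockout 1 and 116 of 4472 in knockout 2.

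The sections came from fresh frozen brains cut at 10 µm and placed on Visium slides, on which each barcoded spot captures polyadenylated RNA from a small area that can hold several cells. Knockouts were Slco1c1-iCreERT2;Pdcd10fl/fl mice, called Pdcd10BECKO in the study, and controls were Pdcd10fl/fl littermates without the Cre. Both groups therefore carried the floxed Pdcd10 alleles. Both received 50 µg of 4-hydroxytamoxifen into the stomach on postnatal day 1, and the study used animals at postnatal day 65. The Slco1c1 promoter drives the inducible Cre in brain endothelium, and choroid plexus epithelium is known to use this gene as well, so the fibroblasts of the border were not the target. Pdcd10, also named Ccm3, is 1 of the genes whose loss causes cerebral cavernous malformations, which are clusters of dilated and leaky vessels. The labels disagree on oxygen. The titles of all 4 libraries and the design text name normoxia, the treatment field names normoxia for the controls and hypoxia for the knockouts, and a protocol given for all 4 names 12% oxygen for 2 days. If the treatment field holds, oxygen and genotype cannot be told apart. Each group had 2 libraries, and the labels leave unsaid whether 1 animal or 2 gave the pair. A p-value here thus measures the spread between these libraries, which may be technical.

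The leptomeninges are the arachnoid and the pia, thin fibroblast layers that wrap the brain and follow its larger vessels inward. Their fibroblasts make collagens and small proteoglycans, carry transporters between cerebrospinal fluid and tissue, and release signals such as retinoic acid, bone morphogenetic protein 6 and insulin-like growth factor 2. Beneath the pia lies the glia limitans, a sheet of astrocyte endfeet on a basement membrane. Macrophages, vessels and blood lie within these layers.

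Knockout 1 stood apart before any comparison was made. Its border spots held a median of 4 scoring UMIs, against 13 in control 1, 18 in control 2 and 12 in knockout 2. Members with only 3 to 5 scoring UMIs were 69.0% of knockout 1, 17.9% of control 1, 11.5% of control 2 and 28.4% of knockout 2. Of the scoring UMIs of all kept spots, members held 46.7% in control 1, 36.1% in control 2, 13.6% in knockout 1 and 41.1% in knockout 2. The median score per 10000 UMIs was 18.9 in control 1, 15.1 in control 2, 10.2 in knockout 1 and 12.8 in knockout 2. Both knockouts therefore lay below both controls in score, and knockout 1 lay lowest. The median depth of a border spot was 7526 UMIs in control 1, 12535 in control 2, 3922 in knockout 1 and 9563.5 in knockout 2. Border spots together gave 936310, 1312159, 511176 and 1427095 UMIs in that order, of library totals of 50148764, 64317838, 53514669 and 74467027. The lowest member scored 11.3 per 10000 in control 1, 8.39 in control 2, 6.28 in knockout 1 and 6.03 in knockout 2, with the highest spots just below the limit at 11.2, 8.30, 6.26 and 6.03. Any 2 libraries shared between 1 and 9 member barcodes, which are positions of the slide layout and not shared cells.

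**Figure D1:**
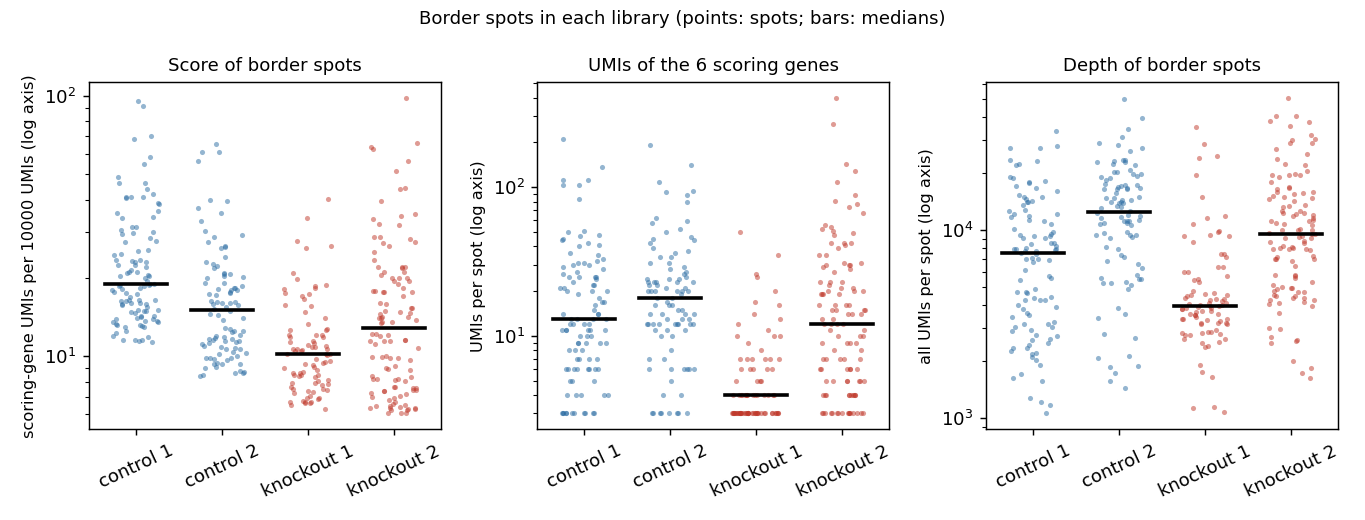
Each point is a border spot, in control (blue) and knockout (red) libraries, with a bar at the median of each library; the log axes show the score in scoring-gene UMIs per 10000 UMIs, the UMIs of the 6 scoring genes, and all UMIs of the spot. Knockout 1 had the lowest medians in all 3 panels, with 4 scoring UMIs and 3922 UMIs per spot.

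Other tissue entered the border spots unequally. Spots with over 3 UMIs of the pituitary hormone genes Prl and Gh per 10000 numbered 56 of 106 in control 1 and 37 of 96 in control 2, and 0 in either knockout. Spots with over 3 Ttr UMIs per 10000, a gene of choroid plexus epithelium, numbered 18 in control 1, 7 in control 2 and 0 in the knockouts. The 10 pituitary genes summed to 6248 CPM (counts scaled to a total of 1000000 UMIs) in control 1 and 2075 in control 2, against 160 and 119 in the knockouts, where Prl, Gh, Cga, Lhb, Fshb and Pitx1 were at 0. The 18 choroid plexus genes summed to 4117, 413, 194 and 322 CPM, in the order control 1, control 2, knockout 1 and knockout 2. The 6 erythrocyte genes summed to 6034, 3910, 2481 and 2371. Pigment cell genes were at or near 0 in all 4 libraries, with summed levels of 0 to 2.29 CPM.

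The genes of the score are given as a description, since they chose the members. Igf2, a growth factor made by leptomeningeal cells, stood at 876 CPM of all UMIs in the border spots of control 1, 641 in control 2, 491 in knockout 1 and 846 in knockout 2. Col1a2, a chain of type I collagen, stood at 489, 369, 137 and 353 in the same order. Slc13a4, a sulfate transporter, stood at 247, 181, 35.2 and 114. Both the collagen chain and the transporter were lowest in knockout 1, and knockout 2 lay below both controls too. Fmod, encoding the collagen-binding proteoglycan fibromodulin, differed outside the border too, with 4.56 and 5.35 CPM in the rest of the control sections and 18.4 and 19.0 in the rest of the knockout sections. At least 3 of the 6 genes were seen in 91.5% and 91.7% of control members, 48.3% of knockout 1 members and 80.2% of knockout 2 members.

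Marker genes of leptomeningeal fibroblasts that the score did not use were also higher in border spots than in the rest, which is a description, because cells and spots rich in one fibroblast gene tend to be rich in the others. The 34 leptomeningeal fibroblast genes found in the files outside the score summed to 51804 CPM in border spots of control 1 against 2318 in the rest of that section. The sums were 34243 against 2459 in control 2, 13291 against 4959 in knockout 1 and 42304 against 4294 in knockout 2. Ptgds made up 85.5%, 81.7%, 48.0% and 68.8% of these border sums, in the order control 1, control 2, knockout 1 and knockout 2. The other 33 genes summed to 7486 against 1066 CPM in control 1, 6255 against 1108 in control 2, 6906 against 2737 in knockout 1 and 13186 against 2459 in knockout 2. Among genes of at least 20 CPM in every border sum, those with the largest lowest log2 ratio of border over rest included Itih2, Bmp6, Lbp, Sema3b, Myoc, Aldh1a2, Cyp1b1, Col1a1, Vtn, Ogn, Cd74, Cp, Slc6a13 and Bgn. Aldh1a2, the enzyme that makes retinoic acid, had log2 ratios of 5.53 and 4.78 in the controls, 3.35 in knockout 1 and 5.77 in knockout 2. Bmp6, a secreted bone morphogenetic protein, had 5.18, 4.77, 3.81 and 5.47. Col1a1, the other chain of type I collagen, had 4.89, 4.37, 3.12 and 4.81. In these 3 genes the contrast of border with the rest of the section was smallest in knockout 1 and as large in knockout 2 as in the controls.

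To compare spots of unequal depth, each was thinned to 1000 UMIs. Ptgds, the prostaglandin D synthase that leptomeningeal cells make in large amounts, was then found in 100% and 96.9% of control members and in 92.0% and 86.2% of knockout members, against 52.7% to 70.0% of the other spots. Without thinning, its level in border sums was 44319, 27988, 6385 and 29118 CPM in the order control 1, control 2, knockout 1 and knockout 2. Its difference did not pass the test.

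Border sums of knockout and control were compared for 11046 genes with edgeR's quasi-likelihood test, the scoring genes left out and Benjamini-Hochberg adjustment over all genes tested. Border levels of single genes from here on are CPM on effective library sizes, that is, after scaling by the trimmed mean of M-values (TMM). Log2 changes are knockout over control, with an approximate standard error worked back from the F statistic of the test. At an adjusted p under 0.05, 268 genes were higher, 2.43% of those tested, and 170 were lower, 1.54%, which makes 3.97% either way. Leaving out control 2 gave 152 higher genes, and leaving out knockout 2 gave 282 lower genes. Each fit that left out 1 library kept 1 library in 1 group, so its spread came from the other group alone. It reused libraries of the full comparison, and for many genes some such fits gave smaller adjusted p-values. Passing in them, where given below, shows how a call leaned on 1 library and is no independent support. Without the spots rich in pituitary RNA, 187 of the 268 and 100 of the 170 passed. Pdcd10 itself did not pass, at 62.0 and 69.7 CPM in control sums and 66.4 and 65.2 in knockout sums (log2 change -0.01 ± 0.23, edgeR adjusted p = 0.991). In sums over spots, fewer cells of a type and less RNA per cell cannot be told apart.

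Acute-phase and reactive-glia genes formed the list with the most rises. Of its 24 tested genes, 17 rose and 0 fell, with a median log2 change of 1.48 against 0.01 over all genes tested. Serpina3n, an inhibitor of serine proteases that reactive astrocytes release, stood at 34.5 CPM in control 1 and 52.9 in control 2, and at 634 in knockout 1 and 556 in knockout 2. Both knockouts were over 10 times either control. Its log2 change was 3.73 ± 0.24, with an edgeR adjusted p of 2.03e-08. A2m, a broad protease inhibitor of plasma, stood at 54.0 and 44.1 CPM in control sums and 229 and 209 in knockout sums (log2 change 2.16 ± 0.22, edgeR adjusted p = 7.78e-06). Lcn2, which binds bacterial iron carriers, stood at 26.4 and 12.0 CPM in control sums and 116 and 125 in knockout sums (2.72 ± 0.29, edgeR adjusted p = 1.68e-05). S100a6, a calcium-binding protein of reactive astrocytes and arachnoid cells, rose from 181 and 194 CPM to 799 and 1096 (2.34 ± 0.21, edgeR adjusted p = 2.25e-06). Vim, the intermediate filament of reactive astrocytes and fibroblasts, rose from 372 and 291 CPM to 983 and 945. These genes rose in both knockouts to like levels, so knockout 1 did not stand apart here. Gfap, the astrocyte filament, did not pass, with 637 and 446 CPM in control sums and 867 and 761 in knockout sums (0.59 ± 0.20, edgeR adjusted p = 0.136). Of the 17, 10 passed in every fit that left out 1 library: Serpina3n, S100a6, A2m, Lcn2, Mt1, Mt2, Vim, Cd109, Hspb1 and Osmr. Without control 2 alone, 10 of the list rose.

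Metallothioneins 1 and 2, small proteins that bind zinc and copper, rose together. Mt1 stood at 3274 and 3141 CPM in control sums and 10795 and 9527 in knockout sums. Mt2 stood at 742 and 890 CPM in control sums and 2847 and 2306 in knockout sums. The change was 1.66 ± 0.18 for Mt1 and 1.66 ± 0.19 for Mt2 on the log2 scale (edgeR adjusted p = 1.99e-05 and 3.81e-05). Metal-responsive transcription of these genes is known to run through repeats of the metal response element, and their promoters are printed because they are neighbours on chromosome 8 and moved together. Both are RefSeq sequences on GRCm38.p6, from 250 bases before to 50 after the start that the promoter table uses, and 5′ to 3′ on the plus strand. RefSeq's gene span for Mt1 begins at 94178883, upstream of that start and inside the printed window. Capitals mark each match to the element's core, TGCACNC or TGCGCNC, searched on both strands.
Mt1, chr8:94178839-94179138, plus strand: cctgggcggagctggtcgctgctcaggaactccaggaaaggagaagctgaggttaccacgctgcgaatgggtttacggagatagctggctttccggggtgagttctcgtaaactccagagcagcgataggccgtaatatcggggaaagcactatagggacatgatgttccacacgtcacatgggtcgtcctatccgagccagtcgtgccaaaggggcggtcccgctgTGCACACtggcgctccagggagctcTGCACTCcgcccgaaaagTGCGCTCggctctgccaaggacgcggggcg
Mt2, chr8:94172368-94172667, plus strand: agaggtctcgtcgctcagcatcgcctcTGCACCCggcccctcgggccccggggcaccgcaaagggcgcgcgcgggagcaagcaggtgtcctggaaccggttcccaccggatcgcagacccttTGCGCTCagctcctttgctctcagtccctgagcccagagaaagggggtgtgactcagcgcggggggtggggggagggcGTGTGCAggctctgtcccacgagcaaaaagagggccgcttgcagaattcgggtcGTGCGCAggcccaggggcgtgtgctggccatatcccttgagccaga

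The Mt1 window held 3 matches, all on the plus strand, and the Mt2 window held 4, of which 2 were on the minus strand. Of 32851 promoter windows of this length, 25.7% held at least 1 match, 1.97% at least 3 and 0.517% at least 4. A match describes letters and not a bound site.

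Vessel genes rose at the border as well. Of the 14 pan-endothelial genes tested, 10 rose and 0 fell, with a median log2 change of 1.52, and their summed level was 807 and 771 CPM in the controls against 2608 and 4302 in the knockouts. Cldn5, the main tight-junction protein of brain endothelium, stood at 118 and 100.1 CPM in control sums and 457 and 611 in knockout sums (2.30 ± 0.21, edgeR adjusted p = 2.95e-06). Ly6c1, a surface protein of endothelial cells and monocytes, stood at 164 and 157 CPM in control sums and 596 and 1204 in knockout sums (2.50 ± 0.27, edgeR adjusted p = 1.48e-05). Ly6a, known as Sca-1, stood at 146 and 136 CPM against 694 and 1139 (2.71 ± 0.24, edgeR adjusted p = 1.94e-06). The groups were well apart in each, with knockout 2 above knockout 1. Pecam1, Esam, Egfl7 and Flt1 also rose in every fit that left out 1 library. Procr, the receptor that binds protein C on endothelium, rose from 4.59 and 4.81 CPM to 36.04 and 31.56. Klf4, a flow-responsive transcription factor, rose from 27.56 and 30.44 CPM to 64.5 and 148. Of 16 tested genes of cavernous malformation vessels, 8 rose, Procr and Klf4 among them. This count was 5 without knockout 2. In 11 of 18 tested hypoxia genes both knockouts lay above both controls, and in 3 below. Of all 11046 genes tested, 2537 lay above and 2446 below. Slc2a1, the glucose transporter of the blood-brain barrier, rose from 296 and 224 CPM to 738 and 1228 (1.93 ± 0.24, edgeR adjusted p = 6.63e-05). It was the sole riser among 18 tested hypoxia genes, whose median was 0.40, and 4 rose without knockout 2.

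In the walls around these vessels, Rgs5, a pericyte regulator of G-protein signals, rose from 101 and 95.3 CPM to 239 and 292 (1.45 ± 0.20, edgeR adjusted p = 2.57e-04). Tagln, an actin-binding protein of smooth muscle, was the other riser of 13 tested mural genes, with 42.5 and 35.2 CPM in control sums and 102 and 68.6 in knockout sums. It did not pass when control 2 or knockout 1 was left out (edgeR adjusted p = 0.211 and 0.102). Of 18 tested basement membrane genes, 5 rose. Col4a1 and Col4a2, the main chains of type IV collagen, stood at 86.1 and 64.1 and at 50.5 and 44.1 CPM in the controls. In the knockouts Col4a1 stood at 142 and 287 CPM and Col4a2 at 138 and 201. Sparc, a collagen-binding matricellular protein, rose from 1193 and 1057 CPM to 2075 and 2231. These 3 passed in every fit that left out 1 library, and Lama5 and Col18a1 did not pass without knockout 2.

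**Figure D2:**
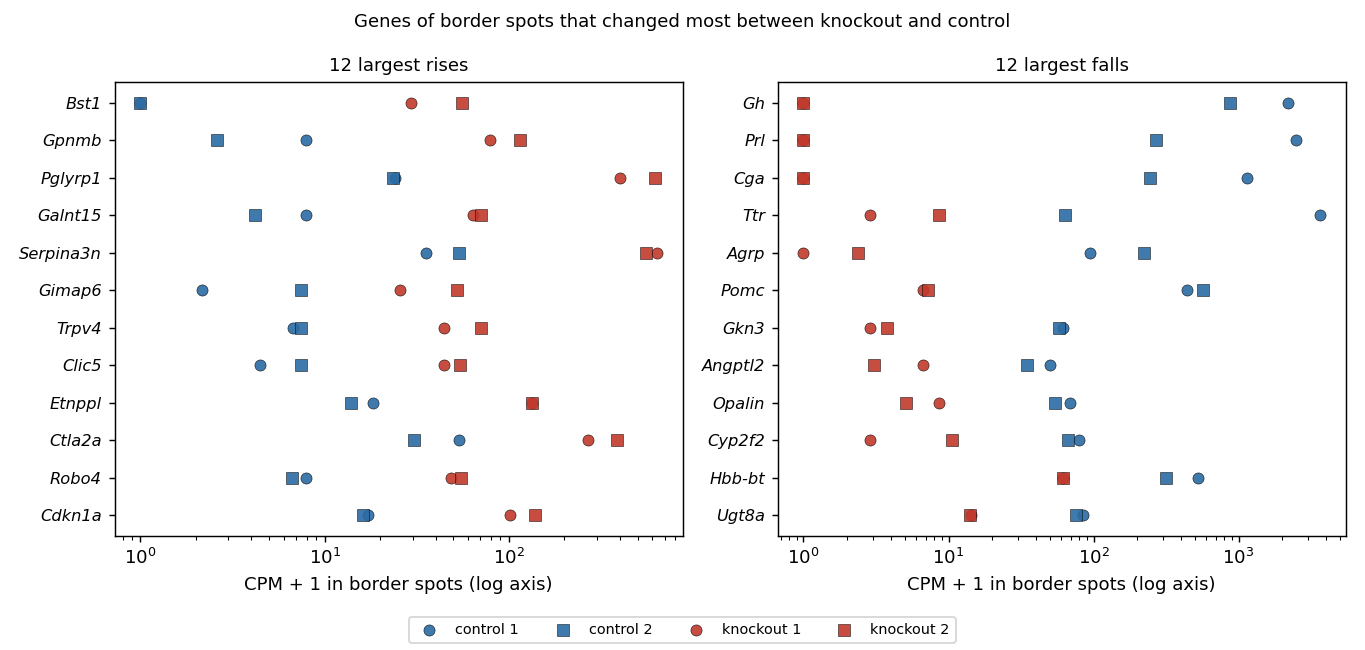
Each point is the border sum of a library, in CPM plus 1 on a log axis, for the 12 genes with the largest rises and the 12 with the largest falls among those past the edgeR threshold; blue is control, red knockout, circles library 1 and squares library 2. In all 24 genes the libraries of the groups were apart, and Gh, Prl and Cga were at 0 counts in both knockouts.

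The largest rises were spread over several kinds of gene. Pglyrp1, a secreted protein that binds bacterial cell walls, stood at 22.97 and 22.43 CPM in control sums and 400.2 and 622 in knockout sums (4.50 ± 0.27, edgeR adjusted p = 1.03e-08). Gpnmb, a membrane glycoprotein of lipid-laden phagocytes, stood at 6.89 and 1.60 CPM against 77.8 and 114 (4.67 ± 0.41, edgeR adjusted p = 2.15e-06). Bst1, an enzyme on the surface of vessel and blood cells that cleaves NAD, had 0 counts in both controls and 15 and 80 counts in the knockouts. It was at least 31.2-fold higher, against a floor of 3 counts over the control group. Galnt15, a glycosyltransferase, rose from 6.89 and 3.20 CPM to 62.6 and 69.3, and Trpv4, a calcium channel opened by swelling and warmth, from 5.74 and 6.41 to 43.6 and 70.0. Etnppl, an astrocyte enzyme that breaks down phosphoethanolamine, rose from 17.2 and 12.8 CPM to 133 and 133. Cdkn1a, which encodes the cell-cycle inhibitor p21, rose from 16.1 and 15.2 CPM to 101 and 138. Gimap6, Clic5, Ctla2a and Robo4 completed the 12 with Serpina3n, and all 12 passed in every fit that left out 1 library.

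Among macrophage genes the direction depended on the kind. Of 20 tested genes of activated phagocytes, 6 rose and 0 fell, with Gpnmb, Capg, Lyz2 and Lgals3 passing in every fit that left out 1 library. Lyz2, the lysozyme of myeloid cells, stood at 97.6 and 87.3 CPM in control sums and 216 and 297 in knockout sums (1.50 ± 0.21, edgeR adjusted p = 3.25e-04). Of 11 tested genes of homeostatic microglia, P2ry12, Fcrls and Gpr34 fell and Sparc, shared with the basement membrane list, rose. Without control 2 or without knockout 1, 1 of this list fell. P2ry12, a receptor for ADP, stood at 43.6 and 51.3 CPM in control sums and 17.1 and 10.98 in knockout sums (-1.89 ± 0.34, edgeR adjusted p = 0.00252), and it was the faller of the 3 that passed without each library. The 16 genes of macrophages that reside at the border summed to 389 and 349 CPM in control border sums and 205 and 343 in knockout ones. In the rest of the section they summed to 36.6 and 43.9 CPM in controls and 79.2 and 80.2 in knockouts. Few of them were called at the border. Of 10 tested genes 1 fell, Pf4, which passed only with all 4 libraries or without knockout 2, and without knockout 2 the count was 3. Mrc1, the mannose receptor of these macrophages, stood at 41.3, 40.9, 30.35 and 41.8 CPM in the order control 1, control 2, knockout 1 and knockout 2 (-0.12 ± 0.27, edgeR adjusted p = 0.907). Lyve1, their hyaluronan receptor, stood at 10.3, 9.61, 9.48 and 19.2 CPM.

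Complement and antigen presentation genes gave smaller rises that leaned on control 2. Of 17 tested complement genes 6 rose, and 2 without control 2. C4b, a component of the classical pathway, stood at 138 and 84.1 CPM in control sums and 222 and 311 in knockout sums (1.31 ± 0.24, edgeR adjusted p = 0.00315, and 0.0959 without control 2). Cd59a, which blocks the membrane attack complex, stood at 42.5 and 29.6 CPM against 77.8 and 119, and passed in every fit that left out 1 library. Of 13 tested genes of class I presentation, H2-D1, H2-T23 and H2-Q6 rose, and 0 of the list rose without control 2. Of 6 tested class II genes 0 rose and H2-Aa fell, and Cd74, the class II invariant chain, stood at 155, 76.1, 62.6 and 117 CPM in the order control 1, control 2, knockout 1 and knockout 2. In 13 of 27 tested interferon-response genes both knockouts lay above both controls at the border, and in 2 below. Of all 11046 genes tested, 2537 lay above and 2446 below. Past the threshold, 268 of all genes tested rose. Of the 27 interferon-response genes, 1 rose, Igtp, against a median log2 change of 0.49. That count was 2 without knockout 1 and 0 when any other library was left out. Hmox1, which breaks down heme, stood at 6.89 and 4.81 CPM in control sums and 20.9 and 49.4 in knockout sums (2.76 ± 0.47, edgeR adjusted p = 0.0016, and 0.185 without knockout 2).

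Leptomeningeal fibroblast genes themselves gave no single direction, and here the result turned on which knockout was counted. Of 32 tested, Apod and Cd34 rose and 5 fell, with a median log2 change of -0.47. In 14 of the 32 both knockouts lay below both controls and in 3 above, and over all 11046 genes tested 2446 lay below (22.1%) and 2537 above. Without knockout 2, 18 fell, without control 2, 10 fell, and without knockout 1, 2 fell. Knockout 1 was the library of weak scores. With 34 members drawn to like scores from every library, 4 of the 5 passed in 1 draw and Crabp2 alone in another. Of the 5, 1 passed without the spots rich in pituitary RNA. Also, 1 passed with at least 6 scoring UMIs per member, and 1 with 1 score limit shared by all libraries. Apod, a lipid-binding secreted protein of fibroblasts and oligodendrocytes, stood at 1885 and 1726 CPM in control sums and 3384 and 6454 in knockout sums (1.45 ± 0.24, edgeR adjusted p = 0.00133). Cd34, a surface protein of fibroblasts and endothelium, stood at 35.6 and 40.9 CPM against 92.9 and 103 (1.36 ± 0.23, edgeR adjusted p = 0.00164). Both passed in every fit that left out 1 library. Crabp2, which carries retinoic acid to its receptors, stood at 98.8 and 52.1 CPM in control sums and 5.69 and 23.3 in knockout sums (-2.03 ± 0.39, edgeR adjusted p = 0.00392). Crabp2 did not pass without the spots rich in pituitary RNA (-1.06, edgeR adjusted p = 0.222). Slc22a6, an organic anion transporter, stood at 134 and 125 CPM against 11.4 and 69.3 (-1.42 ± 0.36, edgeR adjusted p = 0.0287, and 0.0560 without the spots rich in pituitary RNA). Its relative Slc22a8, the regulator Zic1 and the matrix protein Ogn fell in the full comparison and lost their call without knockout 1 (edgeR adjusted p = 0.0632, 0.0573 and 0.116).

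Other fibroblast genes, chosen after their values were seen, were below both controls in knockout 1 and within about the level of the controls or above it in knockout 2. Col1a1 stood at 196 and 192 CPM in the controls, 62.6 in knockout 1 and 185 in knockout 2 (-0.54 ± 0.30, edgeR adjusted p = 0.408). Aldh1a2 stood at 147, 105, 22.8 and 106 CPM in the order control 1, control 2, knockout 1 and knockout 2. Foxc1, a transcription factor that meninges need to form, stood at 99.9, 92.9, 37.9 and 104. Dcn, the proteoglycan decorin, stood at 325, 407, 231 and 488. Each of these 4 genes was lowest in knockout 1, and none passed the test. Of 14 tested collagens 0 fell, although their median log2 change was -0.66. In 10 of the 14 both knockouts lay below both controls, against 22.1% of all genes tested. Without knockout 2, 3 fell, and 2 without control 2. Col5a3, at 0 and 1 counts in the controls, was the collagen that rose, and it did not pass without control 1 or control 2 (edgeR adjusted p = 0.0913 and 0.136).

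**Figure D3:**
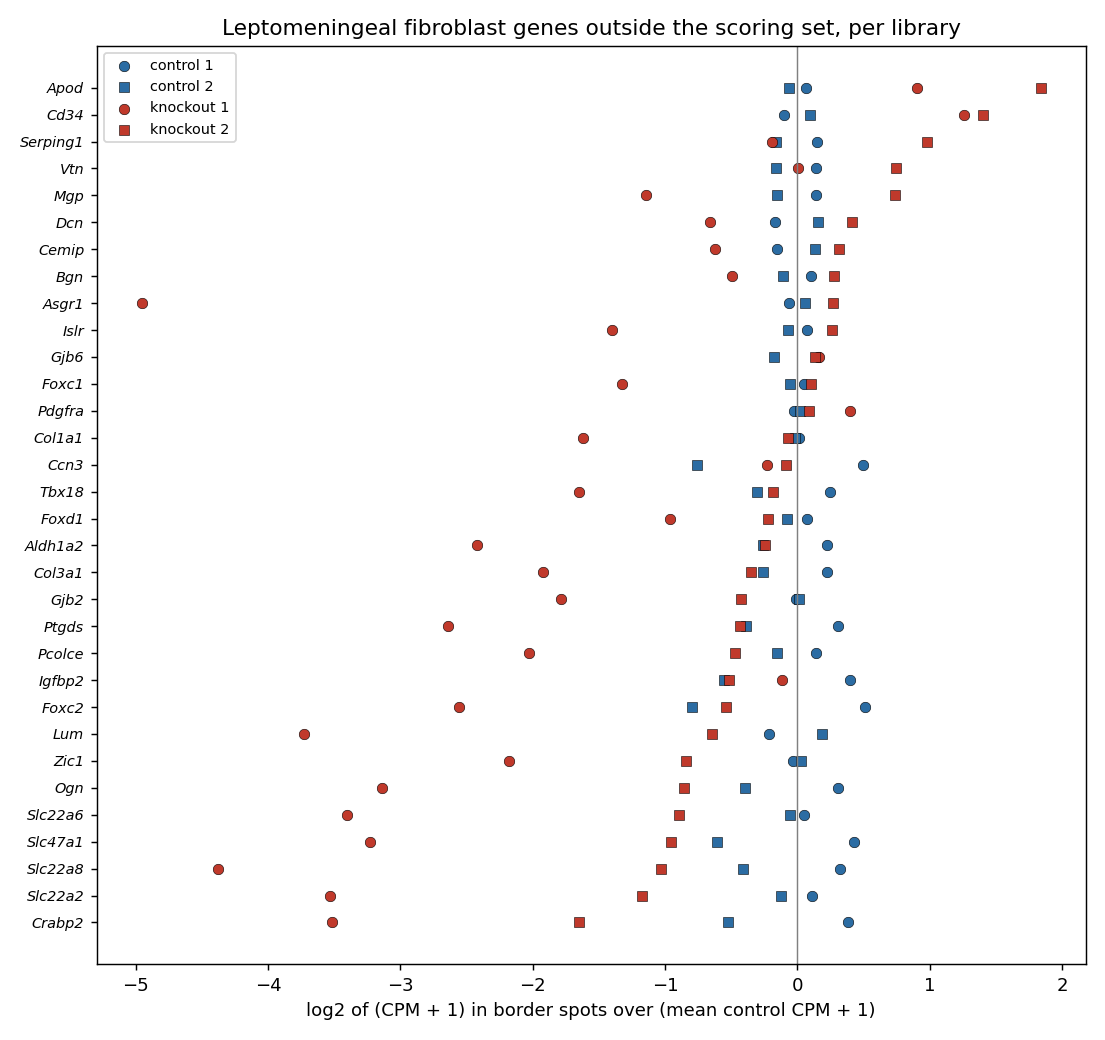
The 32 tested leptomeningeal fibroblast genes outside the score are ordered by their value in knockout 2; the axis is log2 of CPM plus 1 in the border sum over the mean control CPM plus 1, with controls in blue, knockouts in red, circles for library 1 and squares for library 2. Most knockout 1 points lie left of both controls, whereas Apod and Cd34 lie right of both controls in both knockouts.

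Genes for signals and carriers at the meninges split in the same way. Of 23 tested genes of retinoic acid, bone morphogenetic protein, insulin-like growth factor and Cxcl12 signals, 3 rose and 3 fell, and 13 fell without knockout 2. Igfbp5, which binds insulin-like growth factors, stood at 229 and 285 CPM in control sums and 68.3 and 109 in knockout sums (-1.47 ± 0.23, edgeR adjusted p = 6.88e-04). Igfbp3, another binder of these factors, moved the other way, from 44.8 and 40.1 CPM to 87.3 and 141 (1.50 ± 0.25, edgeR adjusted p = 0.0016). Both passed in every fit that left out 1 library. Cxcl12, a chemokine of meningeal cells, stood at 173, 198, 121 and 191 CPM and did not pass. Of 21 tested solute carriers 3 rose and 2 fell, 1 rose without control 2, and 8 fell without knockout 2 and 1 without knockout 1. Of 11 arachnoid barrier genes, S100a6 and the drug exporter Abcb1a rose, and Slc22a8 and the tight-junction gene Cldn11 fell. S100a6 passed in every fit that left out 1 library, whereas Abcb1a and Cldn11 did not pass without control 2 (edgeR adjusted p = 0.168 and 0.263).

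Matrix genes outside the collagens also went both ways. Of 30 tested proteoglycan and glycoprotein genes, Postn and Fbln5 rose and Mfap4, Efemp1, Eln and Ogn fell, and 8 fell without knockout 2 and 1 without knockout 1. Of the list 0 rose without control 2 and 1 without knockout 2. Postn did not pass without control 2 (edgeR adjusted p = 0.0600), nor Fbln5 without control 1, control 2 or knockout 1 (0.118, 0.328 and 0.0858). Mfap4, an elastic-fibre protein, stood at 29.9 and 28.8 CPM in control sums and 5.69 and 3.43 in knockout sums (-2.81 ± 0.47, edgeR adjusted p = 0.00133). Mfap4 was the member that fell in every fit leaving out 1 library. Of 14 tested proteases and inhibitors 5 rose and 0 fell, and 3 rose without control 2 or without knockout 2. Timp4, an inhibitor of matrix metalloproteinases, rose from 64.3 and 62.5 CPM to 216 and 182 (1.64 ± 0.21, edgeR adjusted p = 1.11e-04), and Adamts1, a protease that cuts versican, from 34.5 and 33.6 to 98.6 and 119. Plaur, the urokinase receptor, had 0 and 2 counts in control sums and 8 and 19 in knockout sums, and it did not pass without control 1, control 2 or knockout 1 (edgeR adjusted p = 0.0823, 0.0507 and 0.0587). Of 17 tested genes of the glia limitans and astrocytes, Itih3, Slc1a3 and Sox9 rose and Myoc fell, and 0 rose without control 2.

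The largest falls were those of neighbouring tissues. Gh, the growth hormone gene, stood at 2198 and 869 CPM in the controls with 0 counts in both knockouts, and was at least 991-fold lower against a floor of 3 counts over the knockout group. Prl, prolactin, and Cga, the shared subunit of pituitary glycoprotein hormones, were at least 886-fold and 448-fold lower. Ttr stood at 3629 and 62.5 CPM in control sums and 1.90 and 7.55 in knockout sums (-8.25 ± 1.32, edgeR adjusted p = 9.10e-04). Spots rich in pituitary or choroid plexus RNA were likewise found in the controls only. Without the spots rich in pituitary RNA, Ttr no longer passed (-1.83, edgeR adjusted p = 0.0590). Pomc, the precursor of corticotropin in pituitary and hypothalamus, stood at 442 and 566 CPM in control sums and 5.69 and 6.17 in knockout sums. Agrp, a neuropeptide of the arcuate nucleus at the base of the brain, stood at 94.2 and 220.3 CPM against 0 and 1.37. How the planes of section differed between groups was not tested.

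Myelin and blood genes fell at the border in both knockouts. Of 13 tested myelin genes 9 fell and Apod rose, with a median of -1.21. Opalin, a membrane protein of mature oligodendrocytes, stood at 67.8 and 53.7 CPM in control sums and 7.59 and 4.12 in knockout sums (-3.53 ± 0.39, edgeR adjusted p = 2.30e-05). Mog, a surface protein of myelin, stood at 141 and 145 CPM against 39.8 and 22.6. Mog moved alike in the rest of the section, at 179 and 217 CPM in control sums and 43.1 and 36.9 in knockout sums. Hbb-bt, a beta-globin gene of red cells, stood at 525 and 315 CPM in control sums and 60.7 and 60.4 in knockout sums (-2.79 ± 0.25, edgeR adjusted p = 2.45e-06). In the rest of the section the 6 erythrocyte genes summed to 1470 and 1514 CPM in controls and 1594 and 2046 in knockouts, so their sum did not fall there. At the border 4 of the 6 tested fell, and reads of the near-identical globin copies may have been shared between them. Gkn3, a gastrokine found in brain arteries, stood at 60.9 and 56.9 CPM against 1.90 and 2.74 (-4.48 ± 0.43, edgeR adjusted p = 4.54e-06). Angptl2, a secreted angiopoietin-like protein, stood at 49.4 and 33.6 CPM against 5.69 and 2.06 (-3.68 ± 0.50, edgeR adjusted p = 2.05e-04).

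Whether the border changed differently from the rest of the section was asked with the interaction of genotype and spot class in 8 sums, with the library as a block. Of 16904 genes tested with edgeR's quasi-likelihood test and Benjamini-Hochberg adjustment, 46 changed more upward at the border, 0.272%, and 146 more downward, 0.864%. This fit rested on 2 residual degrees of freedom and gave all genes 1 shared spread, which makes its p-values small. Voom with limma on the same sums called 33 genes, 26 of them shared, and limma on the log2 ratios of border over rest called 0, with 1036 genes at an unadjusted p under 0.05. Counts by edgeR without control 1 were 11 upward and 45 downward, without control 2 they were 12 and 96, without knockout 1 they were 94 and 115, and without knockout 2 they were 73 and 220. All 146 genes of the downward group had more RNA at the border than elsewhere in the controls. Their mean level was higher in the knockouts than in the controls in the rest of the section for 126, and at the border for 62.

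On the log2 scale, genes of several inflammatory and matrix lists changed less upward at the border than in the rest of the section. Of 29 acute-phase and reactive-glia genes 11 were in the downward group, as were 7 of 35 interferon-response genes, 9 of 30 proteoglycan and glycoprotein genes and 7 of 34 leptomeningeal fibroblast genes. So were 4 of 15 border macrophage genes, 4 of 6 erythrocyte genes and 2 of 15 collagens, against 0.864% of all genes tested. All 146 downward genes were richer at the border in controls, and the lists were chosen with earlier results known. The share over all genes is therefore no like background for lists of border genes, and the counts are a description. Lcn2 stood at 0.597 and 0.574 CPM in the rest of the control sections and 31.0 and 37.4 in the rest of the knockout sections. Its fold rise, though not its rise in CPM, was smaller at the border, where its control level was higher (interaction -3.16 ± 0.39, edgeR adjusted p = 3.35e-13, voom adjusted p = 0.032). Timp1, an inhibitor of metalloproteinases, stood at 0.371 and 0.410 CPM in the rest of the controls and 35.8 and 35.4 in the rest of the knockouts, against 17.2 and 8.01 at the control border and 45.5 and 44.6 at the knockout border. Gfap, which did not pass at the border, stood at 48.6 and 64.1 CPM in the rest of the controls and 347 and 277 in the rest of the knockouts (interaction -1.88 ± 0.20, edgeR adjusted p = 1.84e-18). Igfbp2, an insulin-like growth factor binder, stood at 35.5 and 38.5 CPM in the rest of the controls and 203 and 172 in the rest of the knockouts. At the border Igfbp2 stood at 658 and 338 CPM in control sums and 459 and 347 in knockout sums (interaction -2.61 ± 0.20, edgeR adjusted p = 3.13e-34). S100a8 and S100a9, the calprotectin genes of neutrophils, were higher in the rest of the knockout sections and not at the border. S100a9 stood at 121 and 38.5 CPM at the control border and 22.8 and 17.2 at the knockout border, and at 0.988 and 1.80 against 13.8 and 13.8 in the rest. Without the spots rich in pituitary RNA the border change of S100a9 turned to 1.47 (edgeR adjusted p = 0.168), and its interaction was -1.80 (adjusted p = 0.650). The interaction of S100a8 did not pass without those spots either.

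Vessel genes went both ways. Of 14 pan-endothelial genes, 3 changed more upward at the border and 0 more downward. Of 19 genes of cavernous malformation vessels 2 changed more upward and 3 more downward, and of 15 mural genes 1 and 3. Over all genes tested, the edgeR shares were 0.272% upward and 0.864% downward. Tagln stood at 2.04 and 2.92 CPM in the rest of the controls and 48.9 and 33.1 in the rest of the knockouts. This was a larger fold rise than at the border, where its control level was higher (interaction -2.91 ± 0.30, edgeR adjusted p = 1.20e-18, voom adjusted p = 0.0228). Ly6c1 stood at 90.3 and 92.1 CPM in the rest of the controls and 192 and 182 in the rest of the knockouts. This was a smaller fold rise than at the border (interaction 1.37 ± 0.21, edgeR adjusted p = 1.34e-08, voom adjusted p = 0.226). Pglyrp1 stood at 18.9 and 17.7 CPM in the rest of the controls and 146 and 133 in the rest of the knockouts (1.53 ± 0.26, edgeR adjusted p = 1.27e-06, voom adjusted p = 0.335). Rgs5 stood at 36.6 and 41.8 CPM against 47.7 and 41.4 in the rest (1.26 ± 0.21, edgeR adjusted p = 8.28e-07). Of 16 immediate early genes 5 were in the upward group, against 0.272% of all genes tested. Dusp1, a phosphatase induced by stress and activity, stood at 84.0 and 76.8 CPM in the rest of the controls and 57.9 and 55.9 in the rest of the knockouts, and at the border at 62.0 and 59.3 against 85.4 and 183 (1.67 ± 0.23, edgeR adjusted p = 2.17e-10, and 0.0822 without knockout 2). Of the 2 genes called upward by voom, 0 were among the 46, so no named upward gene passed by voom. Serpina3n, Mt1, Mt2 and Cldn5 were higher in knockouts in both classes of spots. Among them Serpina3n passed the interaction test, with a smaller log2 change at the border (-0.85 ± 0.24, edgeR adjusted p = 0.0363).

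**Figure D4:**
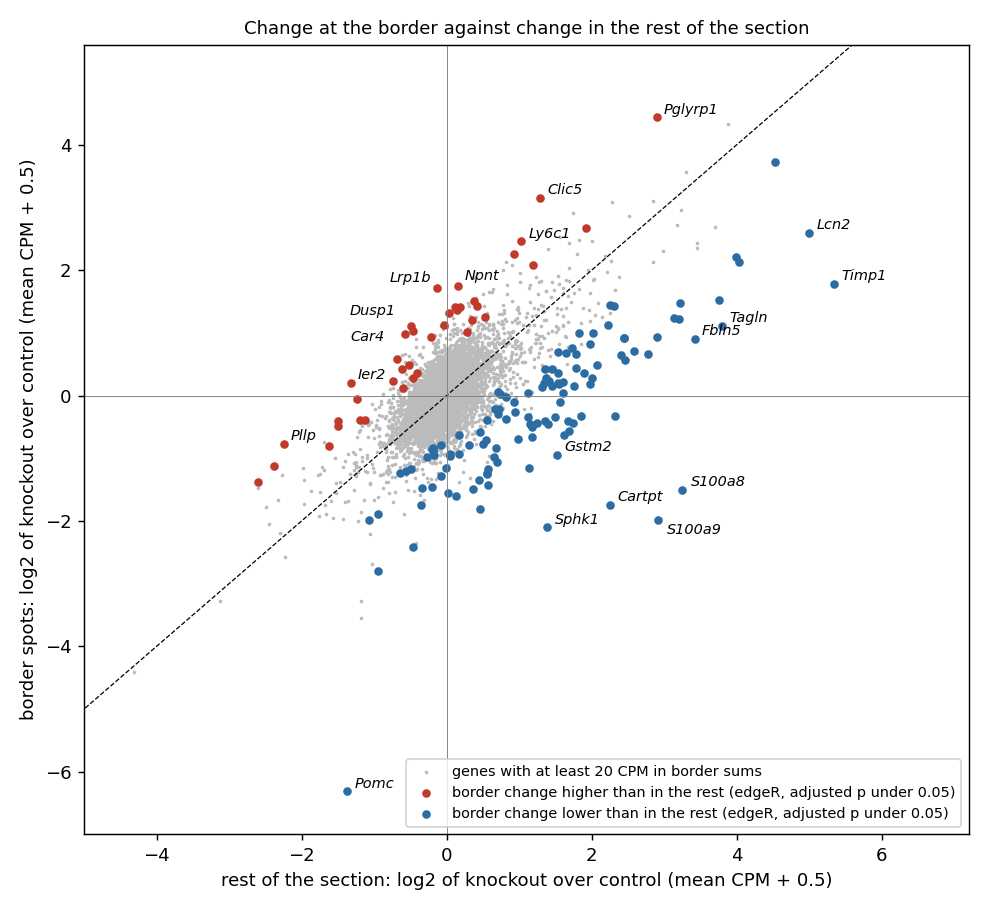
Each point is a gene of at least 20 CPM in border sums, with log2 of knockout over control from mean CPM plus 0.5, in the rest of the section on the horizontal axis and at the border on the vertical axis; coloured genes passed the edgeR interaction test and the dashed line marks equal change. S100a8, S100a9, Cartpt and Timp1 lie far below the line and Pglyrp1, Clic5 and Ly6c1 above it, and Agrp, Cga, Gh, Bst1, Prl and Ttr fall outside the axes.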

How the data were processed

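Per the labels, the assay was 10x Visium on mouse brain. The deposited files hold raw UMI counts that the authors left without normalisation, for 32285 genes and 4992 barcodes in each of 4 libraries. Reads were mapped to mm10 with Space Ranger per the submitters' processing notes, and per the file headers the matrices came from software of Cell Ranger 4. Its version and strand setting were not given in the sources used here. Neither positions of spots nor images were used, and tissue was not told from glass.

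Members and gene lists were chosen with earlier results of these data known. Border counts were summed per library, without the scoring genes, and tested with edgeR 4.0.16 in R 4.3.3 (filterByExpr, TMM, quasi-likelihood, Benjamini-Hochberg adjustment, threshold 0.05). TMM factors were 0.947, 0.967, 1.05 and 1.04. Alternatives used DESeq2 1.42.0 and limma 3.58.1, other limits and thinned spots. On simulated counts, the border test recovered 48 of 100 genes changed 2-fold and 99 of 100 changed 4-fold. The run, which held both sizes, gave 7 false calls in all. These rates describe the simulated counts and need not hold for the real border sums. Floors cover counting error only, whereas the ± values rest on the spread between libraries that the fit estimated.

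Apart from the scoring genes and predicted symbols, genes were named if past the threshold with groups apart and at least 20 CPM, as the 12 with the largest rise, the 12 with the largest fall and the 6 with the smallest p, with 10 genes in each direction of the interaction, up to 4 members of each list past the threshold with the smallest p (the 2 with the highest mean CPM where fewer than 2 passed), 15 genes by border over rest, and Pdcd10. A few genes that the rule names are not reported here. Genes named beyond this rule were chosen after their values were seen. Of 583 list genes, 582 were in the files. Same-numbered libraries did not deviate together (correlation across genes -0.152), so the numbers were not used as pairs.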

Additional observations from a re-analysis of the deposited data

Results flagged for a closer look

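For 19 genes given here the change at the border differed from that in the rest of the section by the edgeR interaction test. More upward at the border, in log2 units, were Clic5 by 1.89, Dusp1 by 1.67, Car4 by 1.66, Npnt by 1.65, Lrp1b by 1.63, Pglyrp1 by 1.53, Pllp by 1.53, Ier2 by 1.51 and Ly6c1 by 1.37. Their edgeR adjusted p-values ran from 2.17e-10 for Dusp1 to 0.0422 for Clic5, and their voom adjusted p-values from 0.114 for Pllp to 0.477 for Lrp1b. Pllp, a myelin membrane protein, did not pass at the border, where it stood at 86.1 and 77.7 CPM in control sums and 47.4 and 49.4 in knockout sums (edgeR adjusted p = 0.0857). In the rest it went from 95.1 and 122 to 23.4 and 21.5.

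More downward at the border were S100a8 at -5.44, S100a9 at -5.22, Pomc at -4.97, Timp1 at -4.59, Cartpt at -4.07, Sphk1 at -3.54, Lcn2 at -3.16, Tagln at -2.91, Fbln5 at -2.67 and Gstm2 at -2.61. Of these 10, all but Sphk1 and Gstm2 also passed by voom, with adjusted p-values of 0.106 and 0.172 for those 2. The interactions of S100a8, S100a9, Pomc and Cartpt did not pass by edgeR without the spots rich in pituitary RNA. Cartpt, a neuropeptide precursor, stood at 71.2 and 110 CPM at the control border and 20.9 and 33.6 at the knockout border, and at 41.7 and 29.4 against 134 and 208 in the rest. Without the spots rich in pituitary RNA, the border change of Cartpt turned to 3.08 (edgeR adjusted p = 0.00712) and its interaction to 0.67 (adjusted p of 1), and the interaction of Pomc turned to 1.71 (edgeR adjusted p = 0.769).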

How the results depend on the processing

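Alternatives that left out spots rich in pituitary RNA, asked for 6 scoring UMIs, left Fmod out of the score, matched scores, crossed the replicate numbers, or used voom and limma ratios were added after seeing the data. Genes higher and lower at the border numbered 268 and 170. DESeq2 called 113 and 58, thinned spots 38 and 33 of 1923 tested, and the crossed pairing 528 and 413. Lower genes numbered 305 with no low-count filter, 295 in the top 8% and 102 with the score without Igf2. Leaving out 1 library gave 152 to 289 higher and 123 to 282 lower. With the replicate number as a block there were 288 and 188. The interaction gave 46 upward and 146 downward. It gave 20 and 90 with the replicate block, 30 and 80 without spots rich in pituitary RNA, 1 and 20 in thinned spots, 2 and 31 by voom, 0 and 0 by limma on ratios (1036 at an unadjusted p under 0.05), and 82 and 247 in the top 8%. Upward genes numbered 80 with 1 score limit, 72 with at least 6 scoring UMIs, 29 against spots with 0 scoring UMIs and 96 crossed, and downward genes 68 in score-matched members, which are a random draw. Another draw gave 87 lower at the border, and 19 upward and 42 downward. Leaving out 1 library gave 11 to 94 upward and 45 to 220 downward. Without spots rich in pituitary RNA, the border change of S100a9 turned to 1.47 and that of Cartpt to 3.08, and the interaction of Pomc turned to 1.71 and that of Cartpt to 0.67. For the named genes, 2509 border values under alternatives kept their side of the threshold, 296 lost it, 79 gained it and 2 reversed; the cause was not tested. Knockout 1's 511176 border UMIs limit the precision of its low genes.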

Other observations

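Barcodes under 1000 UMIs were outside the members. They held 172 scoring UMIs in control 1, 48 in control 2, 47 in knockout 1 and 18 in knockout 2, or 2.45, 1.13, 1.63 and 0.527 per 10000 UMIs. The kept spots held 1.08, 1.09, 0.777 and 1.00 per 10000. Control 1 had 2061 such barcodes and the other libraries 393 to 896.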
